A study of Homo sapiens with 4 samples.

Results

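The zinc finger genes of human chromosome 19 were examined in H929 cells, an established multiple myeloma line of malignant plasma cells, carrying a short hairpin RNA (shRNA) against ILF2 or a non-silencing shRNA. ILF2 encodes a subunit of a complex that binds double-stranded RNA. The genes were all protein-coding genes on chromosome 19 whose symbol is ZNF followed by a digit, apart from ZNF473, and 247 of the 63677 genes in the count files met this rule, which used no measured value. Total RNA depleted of ribosomal RNA was sequenced in strand-specific pairs from 2 libraries with ILF2 shRNA and 2 with non-silencing shRNA. The study's design text calls these independent replicates, and the labels name no hairpin sequence, selection or time after transduction. Whether both ILF2 shRNA libraries carried the same hairpin was not stated, and a second hairpin or a rescue was not analysed here.

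These genes encode proteins with tandem zinc fingers, short repeats in which a pair of cysteines and a pair of histidines hold a zinc ion and neighbouring residues read DNA. Most also carry a KRAB box near the amino terminus, which binds the corepressor TRIM28 and through it the histone methyltransferase SETDB1 and heterochromatin proteins. The family grew by tandem duplication, so related genes lie side by side on chromosome 19, and many of the proteins bind and silence transposable elements. In these sequences a KRAB box pattern was found in 207 of the 246 genes with a coding sequence in the annotation, and the median gene had 12 fingers. ZNF208 had the most, with 36.

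ILF2 itself (ENSG00000143621, chromosome 1, 153634512 to 153643524, GRCh37) had 110.7 ± 5.13 CPM (counts scaled by library size) in ILF2 shRNA cells and 725.2 ± 11.6 CPM in non-silencing cells (SD, n = 2 each). It fell by 2.71 on the log2 scale (SE 0.07, edgeR adjusted p = 9.2e-39). The libraries held 63459322 and 71359863 counted fragments with ILF2 shRNA, and 72977082 and 71389341 with non-silencing shRNA. The 8 plasma cell markers examined summed to 14700 to 14800 CPM with ILF2 shRNA and 12500 to 12800 CPM with non-silencing shRNA. Much of this gap was JCHAIN, with 7682 and 7594 CPM with ILF2 shRNA and 5594 and 5937 CPM with non-silencing shRNA. SDC1 had 881 and 954 CPM with ILF2 shRNA and 1125 and 1040 CPM with non-silencing shRNA, and SLAMF7 had 235 and 239.6 CPM with ILF2 shRNA and 282.6 and 284.4 CPM with non-silencing shRNA. The groups overlapped for XBP1. The remaining plasma cell markers were higher in both ILF2 shRNA libraries. MZB1 had 769.9 and 814.6 CPM with ILF2 shRNA and 586.5 and 551.0 CPM with non-silencing shRNA. In the same order, TNFRSF17 had 610.7 and 613.6 CPM against 507.3 and 522.3 CPM. PRDM1 had 387.4 and 398.8 CPM against 359.5 and 345.9 CPM, and IRF4 had 1362 and 1399 CPM against 1299 and 1289 CPM. Of 3 T cell markers, CD3E had 16.1 and 17.0 CPM with ILF2 shRNA and 8.22 and 7.49 CPM with non-silencing shRNA, while CD3D and CD2 had at most 0.027 CPM in any library. The 3 myeloid markers together had 0.376 to 0.518 CPM with ILF2 shRNA and 0.621 to 0.763 CPM with non-silencing shRNA, and the 3 erythroid markers had 0.141 to 0.173 CPM with ILF2 shRNA and 0.108 to 0.125 CPM with non-silencing shRNA. Of the epithelial markers, KRT18 had 29.5 and 29.3 CPM with ILF2 shRNA and 24.3 and 23.3 CPM with non-silencing shRNA, KRT8 had at most 0.926 CPM in any library, and EPCAM was at 0 in all 4. Of the fibroblast markers, COL1A1 had at most 0.153 CPM in any library and COL1A2 was at 0 in all 4. The part of these marker differences in the results was not tested.

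The zinc finger genes were expressed at low levels. Together they took 0.189% and 0.174% of fragments with ILF2 shRNA, and 0.189% and 0.198% with non-silencing shRNA. The lowest share was in ILF2 shRNA replicate 2 and the highest in non-silencing replicate 2, while replicate 1 of both groups had the same share; the part of this difference in the gene results was not tested. In bulk RNA, fewer cells of a type and less RNA per cell cannot be told apart. At least 1 fragment was found for 241 and 240 of the 247 genes with ILF2 shRNA and for 240 and 244 with non-silencing shRNA. A mean of at least 10 CPM was reached by 52 genes, and 64 had a mean under 1 CPM. Per kilobase of exon (FPKM), the median level of those tested was 0.888, against 2.21 for tested ZNF genes of other chromosomes and 4.48 for all tested protein-coding genes. The 10 genes with the most CPM took 33.8% of all CPM of the family.

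The highest levels per length belonged to 3 genes from separate parts of the chromosome. ZNF121 had 25.4 and 23.7 FPKM with ILF2 shRNA and 27.0 and 29.6 FPKM with non-silencing shRNA. ZNF146, a protein made almost entirely of fingers, had 20.7 and 19.6 FPKM with ILF2 shRNA and 20.4 and 22.6 FPKM with non-silencing shRNA. ZNF791 had 19.98 and 18.2 FPKM with ILF2 shRNA and 18.3 and 20.2 FPKM with non-silencing shRNA. The groups did not overlap for ZNF121, which fell by 0.20 on the log2 scale (SE 0.07, edgeR adjusted p = 0.029), and they overlapped for ZNF146 (adjusted p = 0.38) and ZNF791 (adjusted p = 0.96). The call for ZNF121 was lost when either non-silencing library was left out (adjusted p = 0.077 for replicate 1 and 0.51 for replicate 2), and when ILF2 shRNA replicate 2 was (0.18). Along the chromosome, the median level of the 9 position clusters ran from 0.487 FPKM in cluster 7 to 3.10 FPKM in cluster 2.

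**Figure D1:**
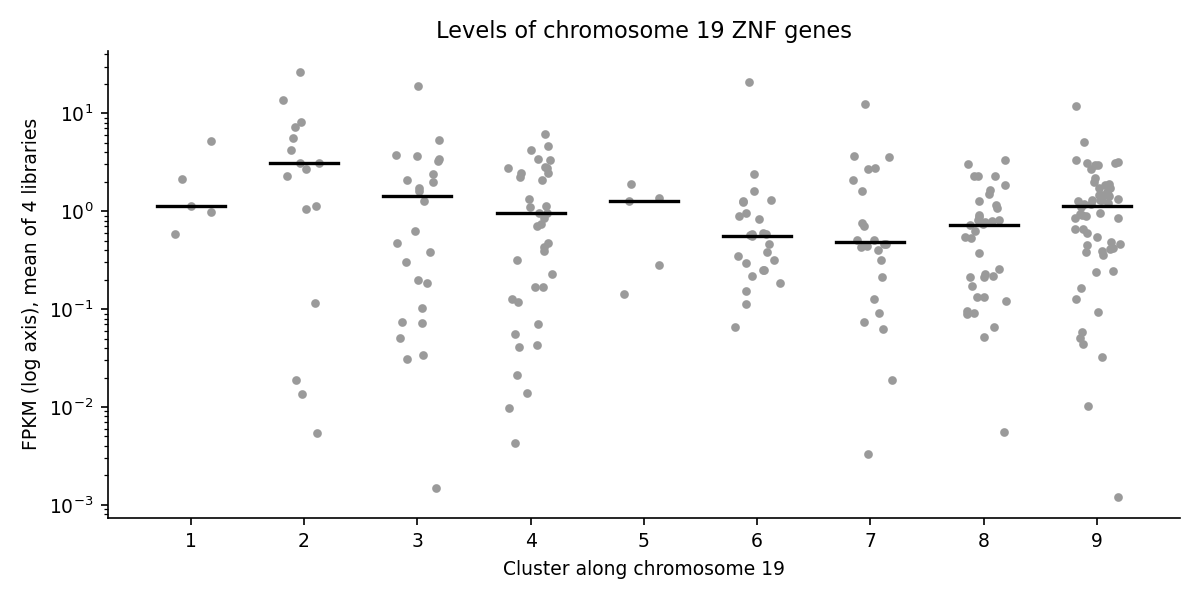
Level of each chromosome 19 ZNF gene with any fragment, as FPKM on a log axis averaged over the 4 libraries, by position cluster. Lines are medians of the tested genes. The highest point is ZNF121 at 26.4 FPKM in cluster 2, and the cluster medians lie between 0.487 and 3.10 FPKM.

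Of the 247 genes, 227 had enough counts to be tested and 20 did not, none of which exceeded 17 counts in a library. Among the 227, 14 genes rose and 25 fell in ILF2 shRNA cells at an edgeR adjusted p under 0.05, taken over all 19142 genes tested. These are 6.17% and 11% of the family, beside 10.2% of all tested genes that rose and 10.1% that fell. The share that fell was therefore near that of all genes, and the share that rose was below it. The median log2 fold change was -0.02 (quartiles -0.21 and 0.14), against -0.00 for all genes tested, and 127 of the 227 values were negative. The groups did not overlap in 129 of the 227 genes, which is 56.8%, against 56.5% of all tested genes. All 39 called genes were among them.

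Most changes were small. The median size among called genes was 0.42 on the log2 scale, and only 4 genes rose and 3 fell by at least 1. Precision followed the level: the median SE of the log2 fold change was 0.33 for genes under 1 CPM, 0.14 between 1 and 5 CPM and 0.10 at 5 CPM or more. The smallest change called in those classes was 1.07, 0.36 and 0.20 in size. The counts of calls moved with single libraries. Leaving out an ILF2 shRNA library gave 26 genes that fell and 10 that rose (replicate 1 out), or 10 that fell and 13 that rose (replicate 2 out). Leaving out a non-silencing library gave 15 that fell and 7 that rose (replicate 1 out), or 7 that fell and 12 that rose (replicate 2 out). Over all tested genes, 1822 fell and 1899 rose without ILF2 shRNA replicate 1, and 1489 fell and 1565 rose with replicate 2 out instead. For the non-silencing libraries these counts were 1073 and 1070 with replicate 1 out, and 1070 and 1029 with replicate 2 out. A set of 10 called genes remained called whichever 1 library was left out, namely ZNF486, ZNF714, ZNF114, ZNF257, ZNF442 and ZNF85, which fell, and ZNF570, ZNF626, ZNF808 and ZNF426, which rose. The fit with the replicate number as a block called 11 genes higher and 15 lower, and DESeq2 gave the same 2 counts. Over all genes the block called 1291 higher and 1297 lower, and DESeq2 called 1420 higher and 1321 lower.

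ZNF genes of other chromosomes had a similar median and a narrower spread, with quartiles of -0.14 and 0.10 against -0.21 and 0.14. Of 229 tested, 13 rose (5.68%) and 17 fell (7.42%), with a median log2 fold change of -0.02. Other protein-coding genes of chromosome 19 had 56 of 751 that rose (7.46%) and 101 that fell (13.4%), with a median of -0.03. The differences between these sets were not tested.

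Along the chromosome, a gap of more than 1000000 bases between neighbouring starts divided the family into 9 clusters of at least 5 genes, with 10 genes outside them. The clusters are numbered from the short-arm end. The falls were not spread evenly over them: clusters 3 and 4 held 17 of the 25 genes that fell. In these clusters 17 of 55 tested genes fell (30.9%), and elsewhere 8 of 172 did (4.65%), where the median log2 fold change was -0.01. Clusters 3 and 4 were singled out after these values were seen, so the contrast is a description. Of 210 pairs of tested neighbours within a cluster, 6 had both genes lower, 4 had both higher and 5 had calls in opposite directions.

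**Figure D2:**
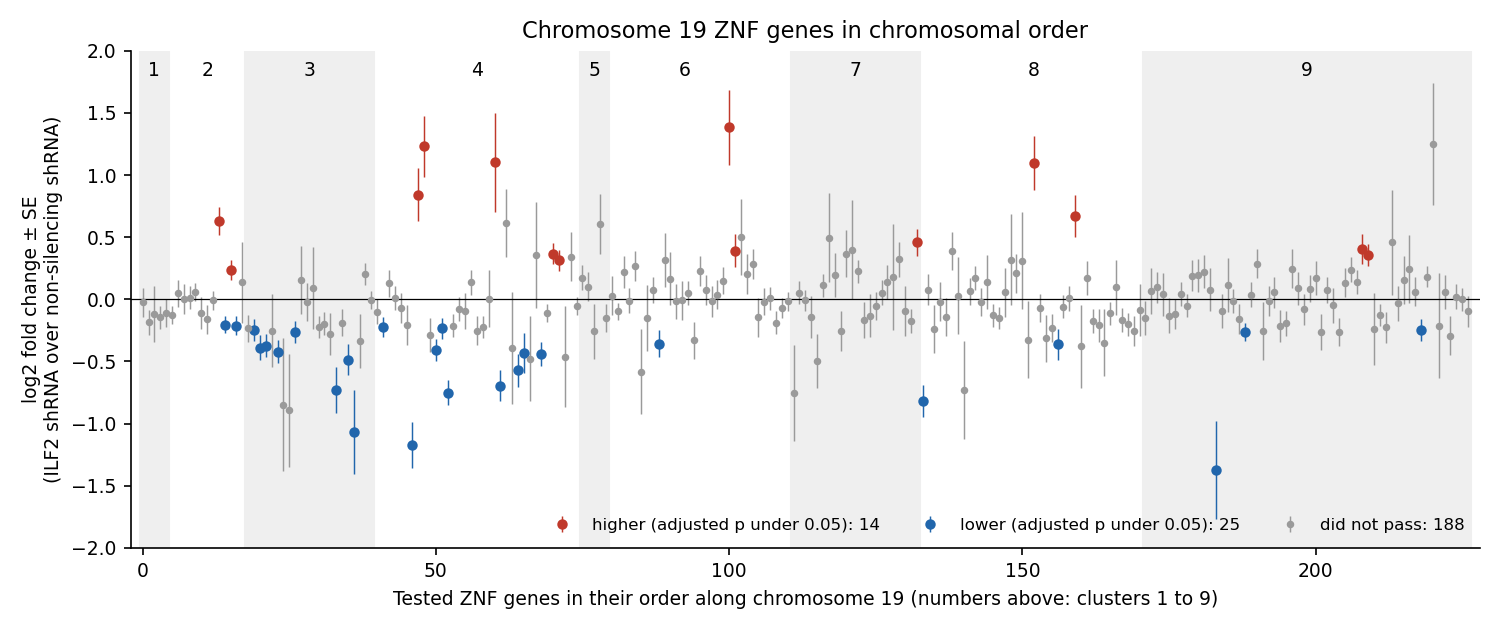
Log2 fold change (ILF2 shRNA over non-silencing shRNA) of each tested chromosome 19 ZNF gene in chromosomal order, with genes that rose, fell or were not called marked and bars of 1 SE. In clusters 3 and 4, 17 of 55 genes fell, and cluster 4 also held 5 of the 14 that rose.

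**Figure D3:**
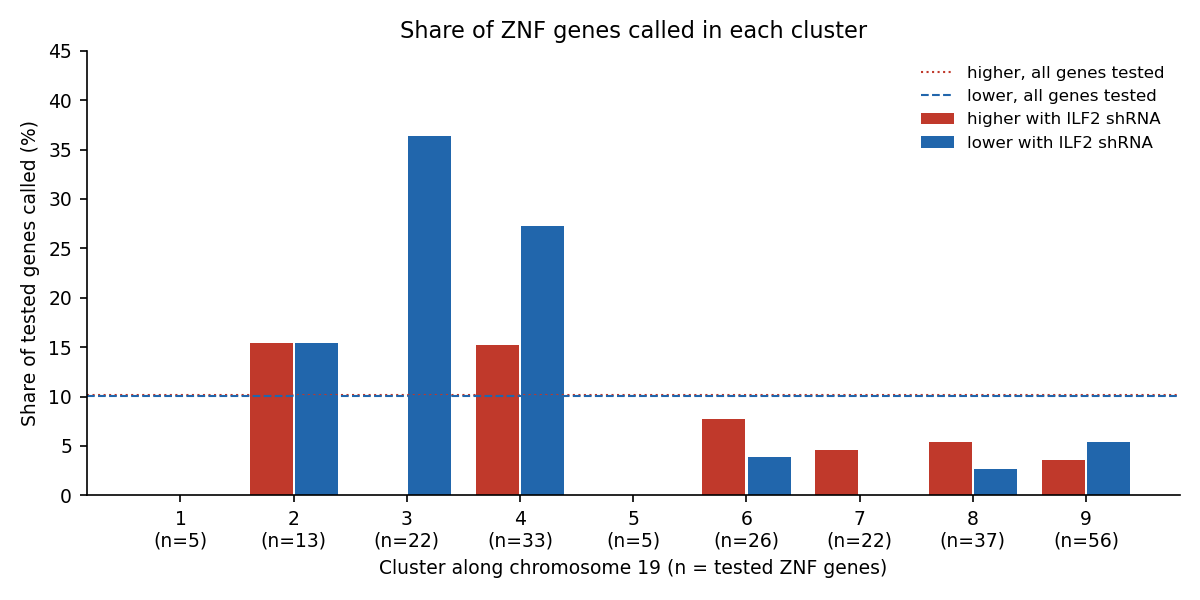
Percent of the tested ZNF genes of each position cluster that rose or fell in ILF2 shRNA cells at an edgeR adjusted p under 0.05. The share that fell was 36.4% in cluster 3 and 27.3% in cluster 4, and 15.4% or less in each other cluster.

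Cluster 3 (chromosome 19, 11594242 to 12750912, GRCh37) held 26 ZNF genes, of which 22 were tested, 8 fell and none rose. At an unadjusted edgeR p under 0.05, 1 was higher and 11 were lower, beside 2971 and 2953 of all 19142 genes tested. Its median log2 fold change was -0.26 and 19 of the 22 values were negative. In 14 genes both ILF2 shRNA libraries were below both non-silencing libraries, against 1 with both above. The groups did not overlap in 68.2% of the cluster's tested genes, against 56.5% of all tested genes. The summed level was 223.2 and 205.1 CPM with ILF2 shRNA and 226.6 and 249.1 CPM with non-silencing shRNA. The 3 other protein-coding genes tested between these genes included no call and had a median of 0.13.

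ZNF440 (ENSG00000171295, 11925099 to 11946016, plus strand) had 9.62 and 9.49 CPM with ILF2 shRNA and 11.8 and 13.8 CPM with non-silencing shRNA. It fell by 0.42 on the log2 scale (SE 0.10, edgeR adjusted p = 0.00063). ZNF442 (ENSG00000198342, 12460185 to 12476719, minus strand) had 1.21 and 1.05 CPM with ILF2 shRNA and 1.782 and 1.97 CPM with non-silencing shRNA, a change of -0.73 (SE 0.18, adjusted p = 0.0021). Both genes encode KRAB zinc finger proteins, with 9 and 14 fingers by pattern. Their groups did not overlap, as in all 39 called genes of the family. ZNF441 had 14.6 and 12.5 CPM with ILF2 shRNA and 15.9 and 19.1 CPM with non-silencing shRNA (log2 fold change -0.38, SE 0.09, adjusted p = 0.0021). ZNF443 had 5.26 and 3.94 CPM with ILF2 shRNA and 5.86 and 6.99 CPM with non-silencing shRNA (log2 fold change -0.49, SE 0.12, adjusted p = 0.0025). In ZNF443, 20.02% of the 76-base windows of its exons occur elsewhere on chromosome 19, so its count may be reduced by fragments with several mapping places.

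The remaining 4 genes that fell are named because they complete the cluster, and were chosen after their values were seen. ZNF627, ZNF823 and ZNF700 had log2 fold changes of -0.24, -0.39 and -0.26 (adjusted p = 0.041, 0.0034 and 0.021). ZNF709 had 0.298 and 0.231 CPM with ILF2 shRNA and 0.513 and 0.597 CPM with non-silencing shRNA (log2 fold change -1.07, adjusted p = 0.018). Overlapping genes on the same strand cover 79.2% of the exon bases of ZNF709 and 17.4% of those of ZNF700, so these 2 values are uncertain. ZNF791, the most abundant gene of the cluster, lies at its far end, had 94.4 and 86.0 CPM with ILF2 shRNA and 86.2 and 95.2 CPM with non-silencing shRNA, and was not called (log2 fold change -0.01).

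The count in cluster 3 depended on 2 libraries. Of the ILF2 shRNA libraries, leaving out replicate 1 gave 9 that fell and leaving out replicate 2 gave 2. Of the non-silencing libraries, leaving out replicate 1 gave 6 and leaving out replicate 2 gave 1. Its median log2 fold change stayed between -0.28 and -0.21. Without non-silencing replicate 2, ZNF440 (adjusted p = 0.10), ZNF441 (0.22), ZNF443 (0.12), ZNF823 (0.12), ZNF627 (0.26), ZNF700 (0.28) and ZNF709 (0.17) were no longer called, and without ILF2 shRNA replicate 2 neither were ZNF441 (0.062), ZNF443 (0.15), ZNF823 (0.087), ZNF627 (0.19), ZNF700 (0.19) and ZNF709 (0.14). Without non-silencing replicate 1, ZNF627 (0.15), ZNF700 (0.053) and ZNF709 (0.053) were lost. ZNF442 was called in each of these fits.

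**Figure D4:**
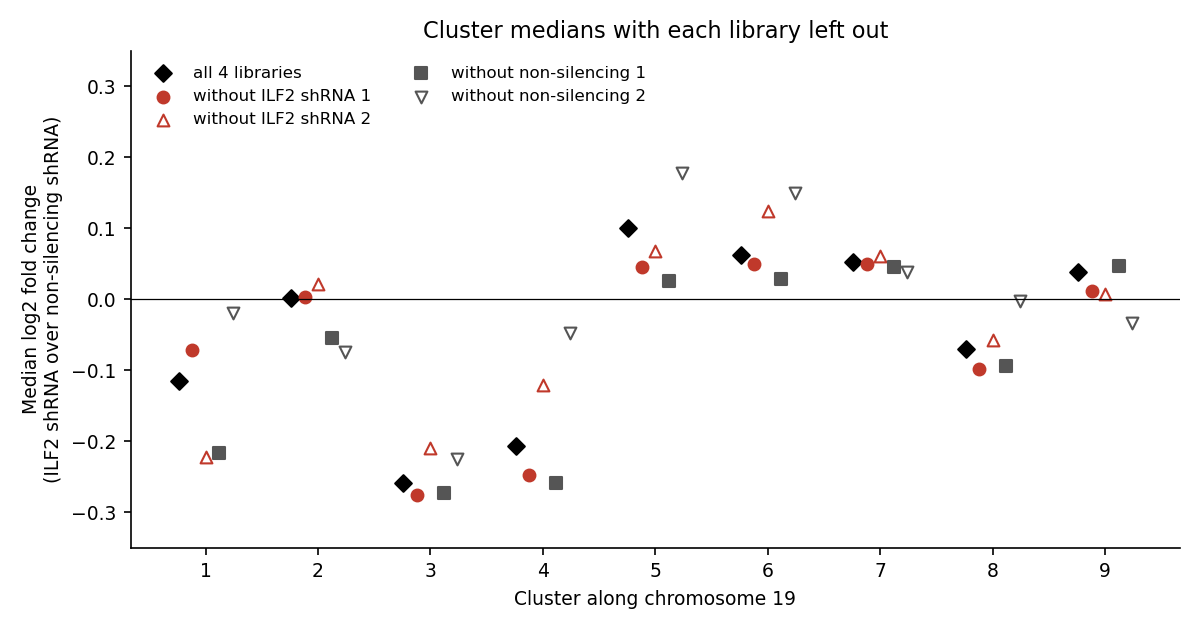
Median log2 fold change (ILF2 shRNA over non-silencing shRNA) of the tested ZNF genes of each cluster, with all 4 libraries and with each library left out. The median of cluster 3 was -0.26 with all libraries and stayed between -0.28 and -0.21, and that of cluster 4 was -0.21 and ran from -0.26 to -0.05.

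Cluster 4 (19779605 to 24312654) held 37 ZNF genes, of which 33 were tested, 5 rose and 9 fell. It has the lowest median exon GC content of the 9 clusters, 38.3%, and no other tested protein-coding gene lies between its members. The median log2 fold change was -0.21 and 21 of the 33 values were negative. Both ILF2 shRNA libraries lay below both non-silencing libraries in 16 genes and above them in 10. The groups thus did not overlap in 78.8% of the cluster's tested genes, against 56.5% of all tested genes. Such a share was not particular to clusters 3 and 4. It was 77.3% in cluster 7, which had 1 call, and 60.0% in cluster 5, which had none. The summed level was 302.7 and 267.9 CPM with ILF2 shRNA and 295.7 and 315.7 CPM with non-silencing shRNA.

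ZNF486 (ENSG00000256229, 20278037 to 20311299, plus strand) had 1.22 and 0.809 CPM with ILF2 shRNA and 2.27 and 2.304 CPM with non-silencing shRNA, from 78 and 56 fragments against 168 and 166. It fell by 1.18 on the log2 scale (SE 0.19, edgeR adjusted p = 1.5e-06). ZNF714 (ENSG00000160352, 21264965 to 21308073, plus strand) had 8.97 and 7.09 CPM with ILF2 shRNA and 13.7 and 13.3 CPM with non-silencing shRNA (log2 fold change -0.75, SE 0.10, adjusted p = 2.5e-08), the smallest adjusted p of the family. ZNF257 had 3.59 and 3.02 CPM with ILF2 shRNA and 5.17 and 5.51 CPM with non-silencing shRNA (log2 fold change -0.69, SE 0.12, adjusted p = 1.8e-05). These 3 genes were called in each fit that left out 1 library.

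ZNF724 had 9.66 and 8.91 CPM with ILF2 shRNA and 11.8 and 13.5 CPM with non-silencing shRNA (log2 fold change -0.44, SE 0.10, edgeR adjusted p = 0.00034, and 0.054 without non-silencing replicate 2). ZNF98 had 3.29 and 2.51 CPM with ILF2 shRNA and 4.47 and 4.13 CPM with non-silencing shRNA (log2 fold change -0.57, SE 0.13, adjusted p = 0.001, and 0.084 without ILF2 shRNA replicate 2). The other 4 genes that fell were chosen after their values were seen. ZNF85 (log2 fold change -0.41, adjusted p = 5e-04) was called whichever library was left out. ZNF430 (-0.23, adjusted p = 0.045) and ZNF101 (-0.22, 0.043) were lost when non-silencing replicate 1 (0.15 and 0.18) or replicate 2 (0.30 and 0.27) was left out, and with ILF2 shRNA replicate 2 left out (0.22 and 0.37). ZNF492 (log2 fold change -0.43, adjusted p = 0.045) was lost whichever library was left out (0.081 to 0.26).

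Of the genes that rose in cluster 4, ZNF675, whose protein is known to bind TRAF6 and dampen its signalling, was the most abundant. ZNF675 (ENSG00000197372, 23708433 to 23870022, minus strand) had 38.7 and 31.5 CPM with ILF2 shRNA and 26.7 and 27.7 CPM with non-silencing shRNA (log2 fold change 0.37, SE 0.08, edgeR adjusted p = 0.00063, and 0.074 without ILF2 shRNA replicate 1). ZNF737 (ENSG00000237440, 20718631 to 20748615, minus strand) had 1.55 and 1.33 CPM with ILF2 shRNA and 0.661 and 0.944 CPM with non-silencing shRNA (log2 fold change 0.84, SE 0.22, adjusted p = 0.0025, and 0.11 without non-silencing replicate 1). In both genes the groups did not overlap, which was part of the rule that named them. The other 3 were chosen after their values were seen. ZNF626, the next gene along from ZNF737, had 1.36 and 1.03 CPM with ILF2 shRNA and 0.445 and 0.569 CPM with non-silencing shRNA (log2 fold change 1.23, SE 0.24, adjusted p = 9.7e-05). ZNF681 had 27.0 and 22.4 CPM with ILF2 shRNA and 19.3 and 20.4 CPM with non-silencing shRNA (log2 fold change 0.31, adjusted p = 0.0051), and was lost without ILF2 shRNA replicate 1 (0.20) and without non-silencing replicate 1 (0.11). ZNF208 (log2 fold change 1.10, adjusted p = 0.039) was at 0.153 to 0.419 CPM and was lost whichever library was left out (0.081 to 0.31).

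ZNF91, which silences SVA retrotransposons and is the most abundant gene of cluster 4 per length, had 63.9 and 58.5 CPM with ILF2 shRNA and 62.6 and 69.5 CPM with non-silencing shRNA. Its groups overlapped and it was not called (log2 fold change -0.11, SE 0.07, edgeR adjusted p = 0.32). In cluster 4 as a whole, leaving out ILF2 shRNA replicate 1 gave 8 genes that fell and 2 that rose (median log2 fold change -0.25), and leaving out replicate 2 gave 5 and 5 (-0.12). Leaving out non-silencing replicate 1 gave 6 that fell and 2 that rose (-0.26), and leaving out replicate 2 gave 5 and 4 (-0.05).

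**Figure D5:**
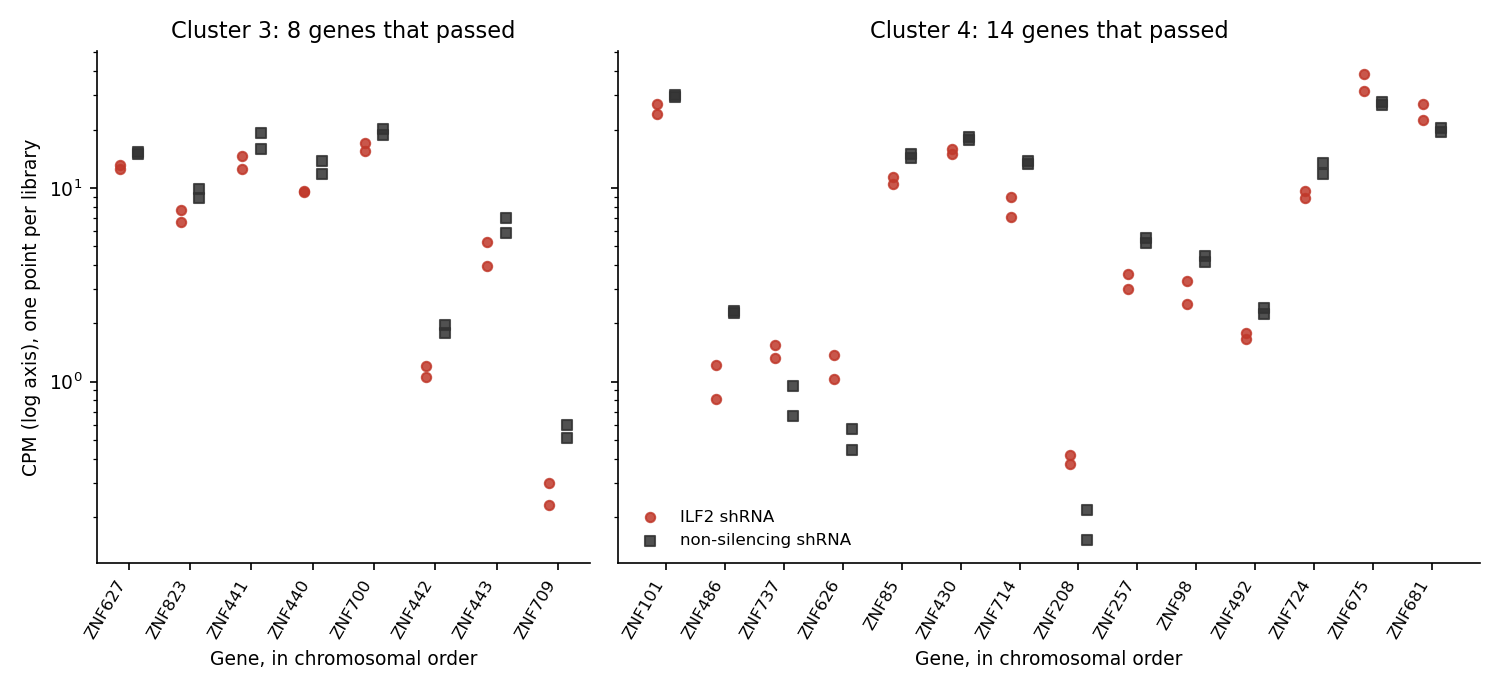
CPM on a log axis of each called ZNF gene of clusters 3 and 4 in each library, in chromosomal order. ILF2 shRNA and non-silencing shRNA libraries are marked. All 8 called genes of cluster 3 fell, and in cluster 4, 9 fell and 5 rose.

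Several genes of cluster 4 are close copies, which limits how fragments can be assigned. Of the exon windows of 76 bases, 35.1% in ZNF98 and 29.9% in ZNF492 occur elsewhere on chromosome 19, against a median of 0% over the family, and 12.5% do in ZNF208. A finger unit of 84 bases, from the first cysteine codon of a finger to the end of the linker, is printed for ZNF98 and ZNF492 because it is identical in both. ZNF486, ZNF626 and ZNF675 follow as more distant copies, with 24, 24 and 22 differing bases from ZNF98. Capitals mark the codons of the zinc-binding cysteines and histidines, read from GRCh37 in the sense of each gene.
ZNF98: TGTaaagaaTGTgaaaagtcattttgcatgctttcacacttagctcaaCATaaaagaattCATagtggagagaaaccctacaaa
ZNF492: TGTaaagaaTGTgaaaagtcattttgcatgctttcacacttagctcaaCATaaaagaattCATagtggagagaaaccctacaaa
ZNF486: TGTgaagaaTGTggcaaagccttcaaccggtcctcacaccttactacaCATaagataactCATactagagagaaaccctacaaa
ZNF626: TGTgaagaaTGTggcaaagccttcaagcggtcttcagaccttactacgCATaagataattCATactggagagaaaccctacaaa
ZNF675: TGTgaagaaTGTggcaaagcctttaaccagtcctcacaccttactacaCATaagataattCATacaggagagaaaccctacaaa
These units lie at chr19:22575404-22575487 (minus strand), chr19:22846898-22846981 (plus), chr19:20308153-20308236 (plus), chr19:20807489-20807572 (minus) and chr19:23836880-23836963 (minus). ZNF486, ZNF626 and ZNF675 themselves had 1.26%, 1.39% and 0.149% of repeated windows. Over the family, 15 genes had at least 10% repeated windows, and 4 of the 39 called genes were among them, ZNF443, ZNF98, ZNF492 and ZNF208.

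Promoters of the clusters differed in sequence. The RefSeq promoter table (GRCh38.p14), which gives 250 bases before and 50 after each start, held 217 of the 247 genes. The motif CCGGAAG, the core bound by ETS family factors, was sought on both strands (CTTCCGG on the other). It was found in 99 of these promoters (45.6%), against 10.7% of all 27305 promoters of that table. In cluster 4 it was found in 21 of 29 promoters (72.4%), and in cluster 3 in 2 of 25 (8.0%). It was in 7 of 13 promoters of genes that rose (53.8%), 9 of 22 of genes that fell (40.9%) and 79 of 168 of tested genes without a call (47.0%), and these shares were not tested against each other. CCAAT was in 53.9% of the family's promoters against 35.7% of all, GGGCGG in 67.7% against 44.6%, and TATAAA in 1.84% against 12%. A match is a match of letters in this window only.

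Promoters of 5 genes are printed, and their near-alike pairs were picked because their outcomes differed. ZNF486, which fell, and ZNF737, which rose, share 228 of 300 aligned positions without gaps, and both carry the motif at position -23 from the start. ZNF714, which fell, and ZNF91, which was not called, share 217 of 300, and the motif is present in ZNF91 at -24 and absent in ZNF714. A further pair, not printed, had the same outcome. ZNF257 and ZNF724, which both fell, share 201 of 300, and both carry the motif at -18. ZNF442 stands for the genes of cluster 3 without the motif. Capitals mark the motif.
ZNF486: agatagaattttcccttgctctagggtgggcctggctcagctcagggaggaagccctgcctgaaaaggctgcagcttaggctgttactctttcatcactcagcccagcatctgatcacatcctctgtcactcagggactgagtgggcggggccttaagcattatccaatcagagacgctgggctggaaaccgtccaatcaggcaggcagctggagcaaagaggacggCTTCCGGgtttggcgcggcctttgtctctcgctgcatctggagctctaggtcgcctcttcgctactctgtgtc
ZNF737: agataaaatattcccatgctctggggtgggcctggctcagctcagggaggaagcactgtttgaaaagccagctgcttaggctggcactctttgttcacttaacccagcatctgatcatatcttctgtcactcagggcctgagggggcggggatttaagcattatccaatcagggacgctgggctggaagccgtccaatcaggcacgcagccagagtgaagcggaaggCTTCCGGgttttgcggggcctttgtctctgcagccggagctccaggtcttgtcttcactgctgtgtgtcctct
ZNF714: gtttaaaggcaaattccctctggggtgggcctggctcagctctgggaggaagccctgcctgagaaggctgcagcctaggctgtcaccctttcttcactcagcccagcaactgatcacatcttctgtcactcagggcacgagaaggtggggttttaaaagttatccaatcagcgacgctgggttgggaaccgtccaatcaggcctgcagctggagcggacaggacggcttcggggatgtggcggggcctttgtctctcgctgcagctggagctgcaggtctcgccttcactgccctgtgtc
ZNF91: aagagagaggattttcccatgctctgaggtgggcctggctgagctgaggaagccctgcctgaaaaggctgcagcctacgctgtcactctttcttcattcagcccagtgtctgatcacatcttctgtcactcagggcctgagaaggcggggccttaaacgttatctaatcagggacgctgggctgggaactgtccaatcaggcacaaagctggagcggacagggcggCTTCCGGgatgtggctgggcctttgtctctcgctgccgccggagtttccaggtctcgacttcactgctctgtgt
ZNF442: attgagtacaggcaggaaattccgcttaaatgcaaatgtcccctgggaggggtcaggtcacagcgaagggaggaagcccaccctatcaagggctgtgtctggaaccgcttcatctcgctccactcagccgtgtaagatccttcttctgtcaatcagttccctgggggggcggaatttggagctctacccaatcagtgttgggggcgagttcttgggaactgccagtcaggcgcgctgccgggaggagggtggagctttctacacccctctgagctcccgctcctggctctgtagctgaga
In GRCh38.p14 they lie at chr19:20166964-20167263 (plus strand), chr19:20565732-20566031 (minus), chr19:21081953-21082252 (plus), chr19:23395422-23395721 (minus) and chr19:12365634-12365933 (minus).

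In cluster 2 (7069455 to 9903856), 2 of 13 tested genes rose and 2 fell (15.4% each), all 4 being neighbours. ZNF426 (ENSG00000130818) had 7.50 and 7.83 CPM with ILF2 shRNA and 4.28 and 5.63 CPM with non-silencing shRNA (log2 fold change 0.63, SE 0.11, edgeR adjusted p = 2.2e-05). ZNF561 had 30.3 and 28.5 CPM with ILF2 shRNA and 24.7 and 25.1 CPM with non-silencing shRNA (0.24 on the log2 scale, SE 0.08, adjusted p = 0.024). Next to ZNF561, ZNF121 fell, as given above, and so did ZNF562, chosen after its values were seen (log2 fold change -0.21, adjusted p = 0.038). ZNF426 was called whichever library was left out. ZNF561 and ZNF562 were both lost without non-silencing replicate 1 (0.21 and 0.15), non-silencing replicate 2 (0.15 and 0.32) and ILF2 shRNA replicate 1 (0.12 and 0.19).

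In cluster 6 (36673188 to 38307940), 2 of 26 tested genes rose and 1 fell. ZNF570 (ENSG00000171827, 37958487 to 37976260, plus strand) had 0.769 and 0.809 CPM with ILF2 shRNA and 0.270 and 0.333 CPM with non-silencing shRNA. It had the largest rise of the family, 1.39 on the log2 scale (SE 0.30, edgeR adjusted p = 0.00037). ZNF793, which lies next to it, had 4.03 and 4.09 CPM with ILF2 shRNA and 2.74 and 3.46 CPM with non-silencing shRNA (0.39 on the log2 scale, adjusted p = 0.027). The call for ZNF793 did not hold without non-silencing replicate 1 (0.44), ILF2 shRNA replicate 1 (0.053) or ILF2 shRNA replicate 2 (0.091). ZNF850 had 5.93 and 6.27 CPM with ILF2 shRNA and 7.46 and 8.16 CPM with non-silencing shRNA (log2 fold change -0.36, SE 0.11, adjusted p = 0.01), and was lost without non-silencing replicate 2 (0.19) and ILF2 shRNA replicate 1 (0.065).

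In cluster 7 (44029649 to 45579846), ZNF296 was the 1 call among 22 tested genes. It had 6.62 and 7.74 CPM with ILF2 shRNA and 5.60 and 4.87 CPM with non-silencing shRNA (log2 fold change 0.46, SE 0.11, edgeR adjusted p = 0.0017), and was lost without non-silencing replicate 2 (0.085) and ILF2 shRNA replicate 2 (0.07). ZNF224, known as a repressor of the aldolase A gene, had 12.9 and 12.1 CPM with ILF2 shRNA and 10.2 and 11.1 CPM with non-silencing shRNA and did not pass (log2 fold change 0.23, adjusted p = 0.075). ZNF428, the most abundant gene there per length, had overlapping groups (log2 fold change -0.01, adjusted p = 0.96). In the small clusters 1 and 5, with 5 tested genes each, no gene was called. The values with the smallest adjusted p there were -0.19 for ZNF555 (0.20) and -0.15 for ZNF57 (0.30) in cluster 1, and 0.61 for ZNF30 (0.066) and 0.18 for ZNF302 (0.23) in cluster 5. At an unadjusted p under 0.05, 1 gene was higher in cluster 5 and none differed in cluster 1.

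In cluster 8 (52074551 to 54083523), 2 of 37 tested genes rose and 1 fell. ZNF808 (ENSG00000198482, 53030905 to 53067717), whose loss in people prevents normal development of the pancreas, had 1.65 and 1.29 CPM with ILF2 shRNA and 0.661 and 0.708 CPM with non-silencing shRNA (log2 fold change 1.09, SE 0.22, edgeR adjusted p = 0.00011). ZNF320 had 2.12 and 2.31 CPM with ILF2 shRNA and 1.25 and 1.53 CPM with non-silencing shRNA (0.67 on the log2 scale, adjusted p = 0.0023, and 0.087 without non-silencing replicate 1). ZNF480, the most abundant gene of the cluster per length, had a log2 fold change of -0.15 (adjusted p = 0.26). ZNF600, chosen after its values were seen, fell (-0.36, adjusted p = 0.029) and was lost without non-silencing replicate 1 (0.091), non-silencing replicate 2 (0.20) and ILF2 shRNA replicate 2 (0.26).

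In cluster 9 (55987699 to 58992597), which holds the most genes, 2 of 56 tested genes rose and 3 fell. ZNF470 had 0.204 and 0.144 CPM with ILF2 shRNA and 0.418 and 0.486 CPM with non-silencing shRNA. It had the largest fall of the family, -1.37 on the log2 scale (SE 0.39, edgeR adjusted p = 0.0075), and was lost without non-silencing replicate 2 (0.11) and ILF2 shRNA replicate 2 (0.093). ZNF460 had 39.6 and 35.4 CPM with ILF2 shRNA and 44.5 and 45.5 CPM with non-silencing shRNA (log2 fold change -0.26, adjusted p = 0.0082), and was lost without non-silencing replicate 1 (0.076), non-silencing replicate 2 (0.13) and ILF2 shRNA replicate 2 (0.13). ZNF274, chosen after its values were seen, is known to bind the ends of other ZNF genes and bring SETDB1 to them. It had 11.9 and 12.1 CPM with ILF2 shRNA and 14.2 and 14.3 CPM with non-silencing shRNA (log2 fold change -0.25, SE 0.09, adjusted p = 0.041), and was lost whichever library was left out (0.094 to 0.21).

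Of the genes that rose in cluster 9, ZNF552 had 4.74 and 5.21 CPM with ILF2 shRNA and 4.02 and 3.51 CPM with non-silencing shRNA (log2 fold change 0.40, edgeR adjusted p = 0.013), and was lost without non-silencing replicate 2 (0.23) and ILF2 shRNA replicate 2 (0.13). ZNF587B had 17.1 and 17.4 CPM with ILF2 shRNA and 12.8 and 14.2 CPM with non-silencing shRNA (0.35 on the log2 scale, adjusted p = 0.002, and 0.12 without non-silencing replicate 1). Overlapping genes on the same strand cover 18.6% of the exon bases of ZNF587B. Among the 8 tested genes outside the clusters, ZNF114 (ENSG00000178150, 48675575 to 48790865) fell. ZNF114 had 2.53 and 2.66 CPM with ILF2 shRNA and 4.40 and 4.75 CPM with non-silencing shRNA (log2 fold change -0.82, SE 0.13, adjusted p = 2.2e-06).

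The calls were also described by features that the choice of genes did not use. Genes with a KRAB box pattern included 13 that rose and 22 that fell of 191 tested, with a median log2 fold change of -0.02. Genes without it included 1 that rose and 3 that fell of 36, with a median of -0.01. By number of fingers, 12.5% of tested genes with 0 to 9 fingers fell, 9.90% with 10 to 14 and 11.4% with 15 or more. By exon GC content, 16.7% fell under 42%, 11.2% between 42% and 46%, and 4.35% at 46% or more. By level, 4.55% fell under 1 CPM, 8.33% between 1 and 5 CPM and 16.2% at 5 CPM or more. Over all tested genes of any class, 10.2% rose and 10.1% fell. Shares of all genes within each class were not computed, so these gradients cannot be called particular to the family. Precision also rose with level, as given above, and its part in these shares was not tested. With GC content and exon length corrected for, an alternative added after the data were seen, 21 genes rose and 33 fell, beside 15.8% of all tested genes that rose and 14.9% that fell. In that fit 10 genes fell and none rose in cluster 3, and 12 fell and 5 rose in cluster 4.

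The partners of KRAB zinc finger proteins were followed in a list of 35 corepressor and heterochromatin genes, all of which were tested. TRIM28, the corepressor that the KRAB box binds, had 246.6 and 273.3 CPM with ILF2 shRNA and 272.8 and 254.8 CPM with non-silencing shRNA. SETDB1, its histone methyltransferase partner, had 119.0 and 123.7 CPM with ILF2 shRNA and 117.6 and 118.7 CPM with non-silencing shRNA. Neither was called (log2 fold changes -0.02 and 0.04, edgeR adjusted p = 0.88 and 0.76). Of the list, 1 gene rose (2.86%) and 10 fell (28.6%), and the median log2 fold change was -0.03. Over all tested genes 10.2% rose and 10.1% fell, and over protein-coding genes 12.4% did in each direction. The levels were unlike, with a median of 78.75 CPM for the list, 8.05 for all tested genes and 22.3 for protein-coding genes. The part of level in these shares was not tested.

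The genes of that list that fell included enzymes of DNA and histone methylation. DNMT3B, a DNA methyltransferase that acts on unmethylated DNA, had 14.07 and 13.96 CPM with ILF2 shRNA and 26.7 and 25.5 CPM with non-silencing shRNA (log2 fold change -0.90, SE 0.08, edgeR adjusted p = 1.3e-12). SUV39H2, a methyltransferase of heterochromatic histones, had 26.1 and 24.8 CPM with ILF2 shRNA and 34.02 and 38.01 CPM with non-silencing shRNA (log2 fold change -0.50, SE 0.08, adjusted p = 1.8e-06). Both were called whichever library was left out. UHRF1, which guides DNA methylation after replication, and MBD3, of the chromatin-remodelling complex NuRD, fell by 0.33 each on the log2 scale (adjusted p = 0.00031 and 0.00037), and without non-silencing replicate 1 their adjusted p was 0.072 and 0.12. ATRX, a chromatin remodeller of repeated DNA, was the gene that rose. It had 112.0 and 97.3 CPM with ILF2 shRNA and 82.8 and 89.3 CPM with non-silencing shRNA (log2 fold change 0.28, SE 0.07, adjusted p = 0.0025), and was lost without non-silencing replicate 1 (0.17) and ILF2 shRNA replicate 1 (0.082). DNMT1, CBX5, CBX3, SUV39H1, CHD4 and CHD3, chosen after their values were seen, fell by 0.19 to 0.31 on the log2 scale. Leaving out non-silencing replicate 1 gave 3 listed genes that fell, leaving out non-silencing replicate 2 gave 6, and leaving out an ILF2 shRNA library gave 7 (replicate 1) or 8 (replicate 2).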

How the data were processed

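Counts per gene were deposited by the authors as raw counts of fragments, made with featureCounts of Subread 1.4.6-p2 on paired fragments with strand setting 2, exons summed by gene, Ensembl annotation of GRCh37, per the file headers. Fragments were aligned with STAR 2.3.0 and handled with SAMtools 0.1.19 per the submitters' processing notes, while their design text names Tophat2. The headers record no setting for multi-mapped fragments, which were taken as left out; this lowers counts of near-identical copies. All 4 libraries, 2 per group by their titles, entered every test.

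Symbols came from GENCODE for GRCh37, for 55665 of 63677 genes by ID and 382 by position with a reciprocal overlap of at least 0.9, while 7630 stayed unmatched. Of the 247 members, 1 was matched by position and 3 are read-through loci. Counts were tested in edgeR 4.0.16 (R 4.3.3) with TMM factors of 0.97 to 1.02, filterByExpr at a minimum count of 10, robust quasi-likelihood tests, two-sided, with Benjamini-Hochberg adjustment over 19142 genes and calls under 0.05. CPM values use TMM-adjusted library sizes, and FPKM divides them by exon length in kilobases. The coefficient of variation shared across genes was 5.38%, and 2 residual degrees of freedom were left. Nothing in the labels says that the replicates were separate cultures beyond the word independent in the design text, so p-values measure the spread between these libraries. The edgeR fit also draws each gene's variance toward a trend over all tested genes, so p-values rest on that pooled spread too. Tested on simulated counts of 19142 genes for this comparison, edgeR called 92% of 50 genes given a log2 change of 0.5. It called 98% at 1 and 100% at 1.5 and 2, and 7 of 202 calls were false. Every simulated gene had the same coefficient of variation, and no deviation was shared between libraries, unlike in the measured counts. These rates therefore hold for that simpler setting. Recovery at the low levels of this family was not tested. In the measured libraries, 44 tested members were under 1 CPM, with a median SE of 0.33 and no called change smaller than 1.07.

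Fingers and KRAB boxes were counted by pattern in the longest annotated coding sequence of GRCh37, where RefSeq proteins had been planned. Alternatives were DESeq2 1.42.0, limma-voom (limma 3.58.1), DESeq2 size factors, upper-quartile factors, no filter, a filter of 1 CPM, glmTreat at 0.5, a replicate block, each library left out, and, added after the data were seen, a crossed pairing and a GC and length correction (mgcv 1.9.3) with and without the block. The members and all lists were chosen with earlier results of these data known. Named genes were ILF2, the 8 members that rose most and the 8 that fell most, if called, with an average of at least 0 log2 CPM and groups that do not overlap, the 2 members with the smallest adjusted p and the most abundant member of each cluster, TRIM28 and SETDB1, and up to 4 listed partner genes in each direction.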

Additional observations from a re-analysis of the deposited data

How the results depend on the processing

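ILF2 fell, and the median of the family stayed between -0.06 and -0.02, under every alternative run. The count of members that fell was 15 in DESeq2. A glmTreat test against 0.5 left 2 members that rose and 1 that fell, beside 155 and 126 of all 19142 genes. The calls of members were 14 and 25 with DESeq2 size factors and with upper-quartile factors. With 1 library left out, 7 to 13 members rose and 7 to 26 fell, and of the corepressor and heterochromatin genes 0 to 1 rose and 3 to 8 fell. Of that list, 5 genes rose and 12 fell with the GC and length correction (3031 and 2846 of all 19142 genes). On the same list, glmTreat left 0 that rose and 1 that fell. The replicate block called 11 members higher and 15 lower (1291 and 1297 of all 19142 genes). With the GC and length correction beside the block, 18 members rose and 32 fell (2860 and 2669 of all genes). In that fit 5 listed partner genes rose and 12 fell. The numbers did not pair the libraries: deviations of same-numbered libraries correlated at -0.51 over 5000 genes. With the crossed pairing, 24 members rose and 35 fell (2871 and 2857 of all genes), and 4 partner genes rose and 13 fell. The crossed pairing was chosen from that correlation in these same data, so its added calls are no separate evidence. The cause of these shifts was not tested. Under a gap of 500000 bases, clusters 1, 3, 4, 5, 6 and 8 kept their members, cluster 9 split into 2, cluster 2 had 14 members in place of 16, and cluster 7 lost ZNF296, its only called gene, leaving 0 of 21 tested. Depth limits genes under 1 CPM most, where no change smaller than 1.07 was called. Deeper or further libraries were not analysed here.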
